A study of Mus musculus with 16 samples.

Results

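The genes described here act in the choice of fuel by mitochondria. They are the 4 pyruvate dehydrogenase kinases (*Pdk1*, *Pdk2*, *Pdk3* and *Pdk4*), the ketone body enzymes *Bdh1* and *Oxct1*, the mitochondrial carriers *Ucp2* and *Ucp3*, and *Angptl4*, a secreted inhibitor of lipoprotein lipase. They were listed by name for their role and mapped to the identifiers of the deposited table, which gave 9 genes of 51912. All 9 were among the 20159 genes with enough counts to be tested, although *Bdh1* had at most 21 counts in a library. RNA was sequenced from whole ventricles of 16 mice, 4 in each of 4 groups. WT SH and WT MI were wild-type C57BL/6J mice, and KO SH and KO MI were *Lrrc10*-/- mice, made in the C57BL/6 background, which lack the cardiomyocyte protein LRRC10 in the whole body. Mice had a sham operation (SH) or a myocardial infarction (MI, by coronary ligation) on postnatal day 1, and ventricles above and below the ligature were collected 7 days later. No group received a further agent, and the sham mice are the uninjured reference.

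The heart of a newborn moves from glucose and lactate towards fatty acids as milk feeding starts. Pyruvate dehydrogenase is the gate by which glucose carbon enters the mitochondrial oxidation cycle, and its kinases phosphorylate it and shut it. Fatty acids activate PPAR nuclear receptors, which pair with RXR on DNA, and *Pdk4*, *Ucp3* and *Angptl4* are textbook PPAR targets. *Pdk1* is better known as a target of the hypoxia factor HIF-1, and *Oxct1* encodes the enzyme that commits ketone bodies to oxidation outside the liver.

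*Lrrc10* had 0 counts in all 8 KO libraries and between 26.3 and 35.6 CPM (counts scaled to library depth and composition) in the 8 WT libraries. The libraries held between 33783874 and 57470159 counts. The labels call the groups balanced for sex, but *Xist* was high in 0 of 4 WT SH libraries and in 2 of 4 in each other group. The summed CPM of 6 cardiomyocyte markers was from 22457 to 35822 in every library, with KO SH, at 24064 to 24955, below the WT SH range of 25083 to 35822. Summed markers of fibroblasts were from 1790 to 2678 CPM, of endothelium from 611 to 824 CPM, of macrophages from 47.8 to 126 CPM and of T cells from 0.200 to 2.39 CPM. Of 7 macrophage markers 6 were called higher in KO MI against KO SH, beside 7.42% of all tested genes. The part of macrophages in the values of the members was not tested. KO MI replicate 7 stood apart from the other 3 KO MI libraries in several of the genes described here, and results that rest on it are given with and without it. It was singled out by its values in these genes. A call made only without it therefore describes the remaining libraries and is not a test.

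The promoters of *Pdk4* and *Ucp3* are shown because these were the members called lower in KO MI against WT MI. The sequences come from the RefSeq table of promoters, which is on GRCm38.p6 and holds 8 of the 9 genes. *Angptl4* was not matched. Coordinates are those of the unique exact match in GRCm39. Only the bases before the start of the GENCODE gene are printed, 5′ to 3′ on the strand of the gene, and capitals mark the hexamer AGGTCA, the unit that PPAR and RXR each bind.
*Pdk4*, chr6:5496340-5496528, minus strand: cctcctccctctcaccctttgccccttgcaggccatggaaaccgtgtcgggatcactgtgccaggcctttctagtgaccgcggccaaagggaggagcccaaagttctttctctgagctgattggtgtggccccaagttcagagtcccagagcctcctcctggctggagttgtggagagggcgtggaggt
*Ucp3*, chr7:100121948-100122135, plus strand: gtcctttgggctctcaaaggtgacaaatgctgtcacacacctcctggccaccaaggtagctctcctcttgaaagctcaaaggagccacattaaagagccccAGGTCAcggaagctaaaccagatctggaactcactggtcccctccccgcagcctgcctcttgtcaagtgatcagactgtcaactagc
The motifs were searched on both strands from 250 bases before the RefSeq start to 50 bases after it. The *Ucp3* promoter holds AGGTCA on its plus strand, beginning 149 and 44 bases before the RefSeq start. The second of these lies past the GENCODE start and is not printed. No other member with a promoter in the table holds the hexamer, which is found in 16.3% of all 32851 promoters. A direct repeat of it with 1 base between, the classic PPAR element, which by construction also contains the hexamer, was in none of these promoters and in 0.0396% of all promoters. The hypoxia core ACGTG was found in the *Pdk3* and *Oxct1* promoters and in 1 of the 2 listed for *Pdk2*, and in 19.6% of all promoters. These matches describe the letters of a short window.

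On the scale of reads per kilobase of exon and scaled to library depth (RPKM), mean levels over the 16 libraries ran from 59.0 ± 21.3 (SD, n = 16) for *Pdk4* to 0.0422 ± 0.0272 for *Bdh1*. *Oxct1* was next to *Pdk4* at 52.8 ± 15.5 RPKM. *Pdk1* (7.88 ± 0.646), *Ucp2* (7.28 ± 1.06) and *Pdk2* (7.02 ± 1.11) formed a middle level, followed by *Ucp3* (4.97 ± 1.71), *Angptl4* (3.11 ± 1.44) and *Pdk3* (1.59 ± 0.340). Within the pairs *Pdk4* and *Oxct1*, *Pdk1* and *Ucp2*, and *Ucp2* and *Pdk2*, the difference in mean was smaller than the SD of either gene. The order also depends on the exon lengths used, since in CPM *Oxct1* (mean 254) was above *Pdk4* (224). The steadiest gene was *Pdk1*, whose highest library was 1.3 times its lowest. The corresponding ratio of CPM was 4.95 for *Ucp3*, 4.55 for *Angptl4* and 3.95 for *Pdk4*. The ratio of *Bdh1*, 17.1, rests on counts from 1 to 21.

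**Figure D1:**
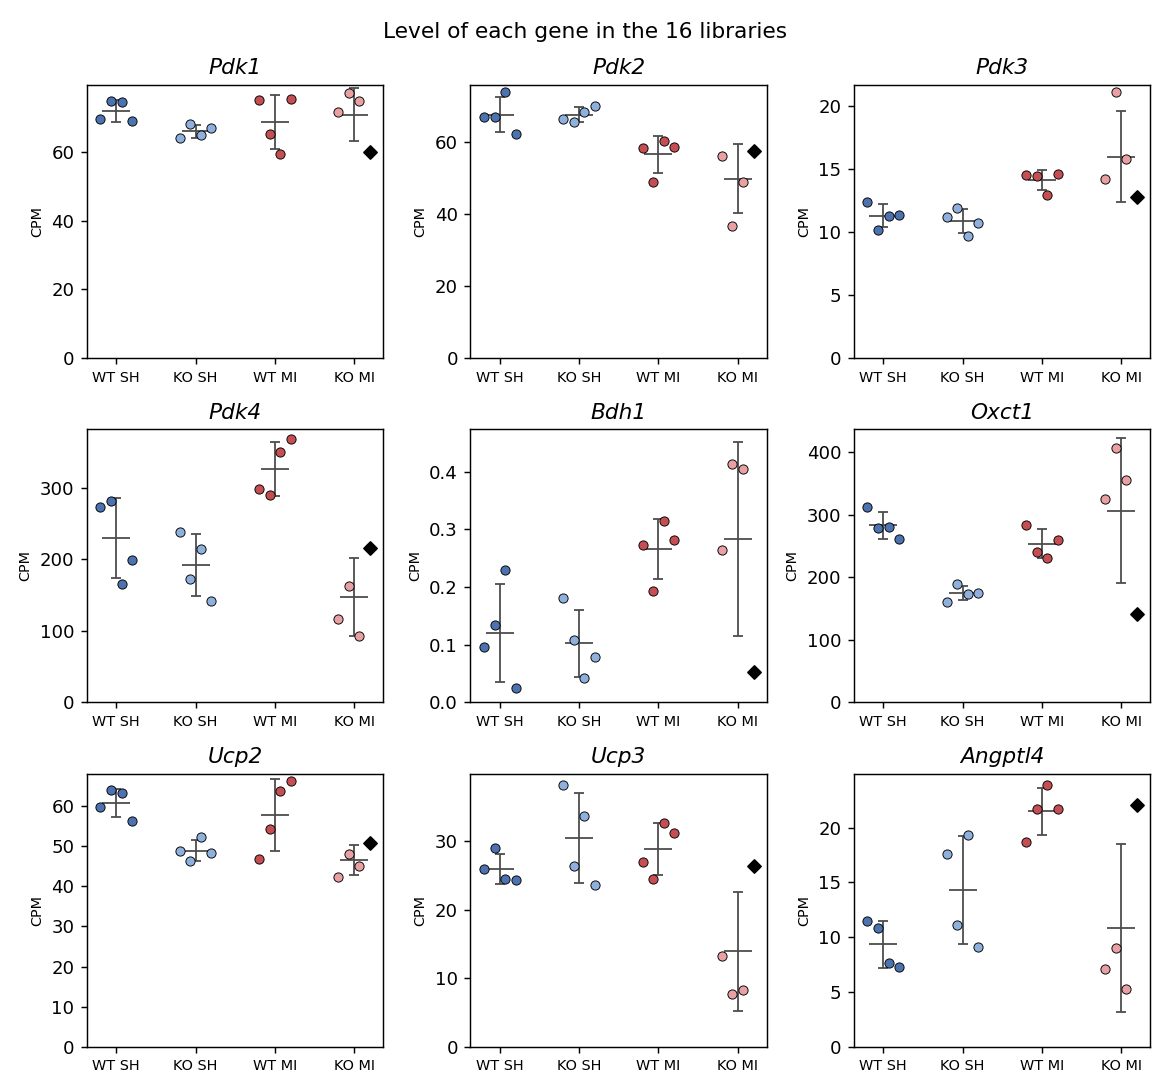
CPM of the 9 genes (y axis, from 0) in the 4 groups (x axis). Each point is 1 library, the black diamond is KO MI replicate 7, and bars give the mean ± SD of 4 libraries. *Pdk4* was below every WT MI library in all 4 KO MI libraries. KO MI replicate 7 lies apart from the other KO MI libraries in *Oxct1*, *Ucp3* and *Angptl4*, though Dixon's gap test did not flag it.

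A gene was called when its Benjamini-Hochberg adjusted p over all tested genes was under 0.1 (edgeR quasi-likelihood test) and its log2 fold change was at least 0.5 in size. Of the 9 genes, *Pdk4* and *Ucp3* were called in KO MI against WT MI, both lower, where 1.73% of all tested genes were called. In KO SH against WT SH *Oxct1* was called, lower, against 5.01% of all tested genes. WT MI against WT SH gave 1 call, *Angptl4*, higher, beside 2.78% of all tested genes. KO MI against KO SH gave 4, with *Pdk3*, *Bdh1* and *Oxct1* higher and *Ucp3* lower, beside 7.42%. The counts were 4, 2, 1 and 7 without KO MI replicate 7, beside 2.88%, 5.96%, 3.42% and 10.9% of all genes tested in that fit. With the adjusted p alone and no minimum fold, the counts were 3, 2, 1 and 5, beside 3.07%, 12.3%, 5.31% and 17.5% of all tested genes. The median log2 fold change of the 9 genes was -0.185, -0.125, 0.152 and -0.0724 in the same order, and that of all genes was between -0.0103 and 0.00767. The members were chosen with results of these libraries known, so the counts describe them and do not test them. The comparisons share groups, so their calls are not separate evidence.

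**Figure D2:**
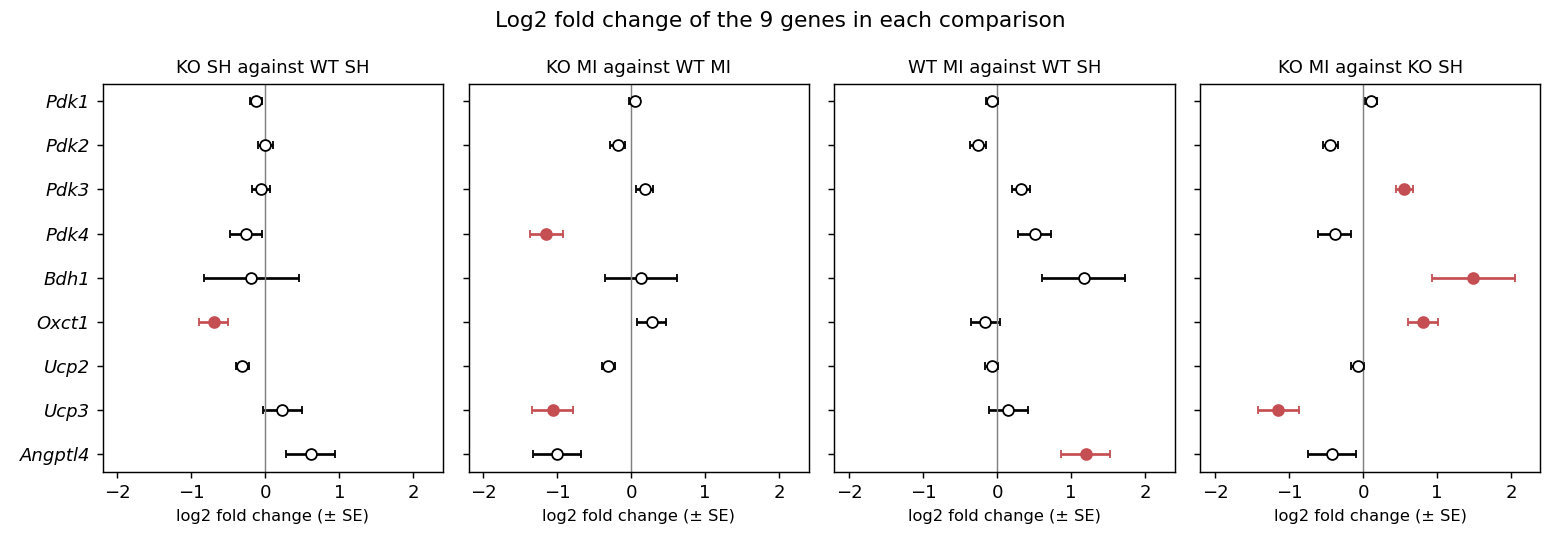
Log2 fold changes (x axis, ± SE) of the 9 genes (y axis) in the 4 comparisons, from the edgeR fit of all 16 libraries. Filled red points were called and open points were not; *Pdk4* and *Ucp3* were called lower in KO MI against WT MI, and *Oxct1* lower in KO SH against WT SH.

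Among the kinases, *Pdk4* was the gene called between KO MI and WT MI. It lies on chromosome 6 (GRCm39, 5483097 to 5496339, minus strand). Its CPM was 299, 290.3, 349.9 and 368 in the WT MI libraries (replicates 1 to 4) and 117, 162, 93.2 and 216 in the KO MI libraries (replicates 1, 2, 3 and 7). Every KO MI library lay below every WT MI library. The log2 fold change was -1.15 ± 0.22 (SE), or 0.450 times the WT MI level, and passed the call for a differentially expressed gene (edgeR adjusted p = 0.00952). In whole tissue, fewer cells of a type cannot be told apart from less RNA in each cell. The exact permutation test (2-sided) gave p = 0.0286 with n = 4 against 4, the smallest it can give. *Pdk4* kept the call with each of the 16 libraries left out in turn (log2 fold changes from -1.40 to -0.985).

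Post-sham, the *Pdk4* levels of the genotypes overlapped. WT SH libraries had 273, 281, 166 and 199 CPM and KO SH libraries 239, 173, 214 and 142 CPM (log2 fold change -0.26 ± 0.22, edgeR adjusted p = 0.521). In the WT mice all 4 MI libraries were above all 4 sham libraries, with a log2 fold change of 0.51 ± 0.22 that missed the call (edgeR adjusted p = 0.250, exact permutation p = 0.0286, n = 4 against 4). In the KO mice the change with MI was -0.38 ± 0.22 (edgeR adjusted p = 0.285). Without KO MI replicate 7 it was -0.63 and called (edgeR adjusted p = 0.0356).

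*Pdk4* also made up most of the kinase message. Its share of the summed RPKM of the 4 kinases was 77.0% ± 4.99 (SD, n = 4) in WT SH, 74.6% ± 4.73 in KO SH, 84.2% ± 1.56 in WT MI and 69.5% ± 8.33 in KO MI. The WT MI libraries lay between 82.2% and 85.8%, and the KO MI libraries between 60.4% and 79.1%, with no overlap. The size of the share depends on the exon lengths used, 3795 bases for *Pdk4* and 8234 to 8809 for the other kinases. In CPM, without lengths, the means over the 16 libraries were 224 for *Pdk4*, 69.4 for *Pdk1*, 60.4 for *Pdk2* and 13.1 for *Pdk3*.

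*Pdk1*, known as a hypoxia target, was between 59.4 and 77.2 CPM in every library and was called in no comparison. All 4 KO SH libraries (64.1, 68.2, 64.9 and 66.9 CPM) were below all 4 WT SH libraries (69.7, 74.8, 74.7 and 68.9 CPM), with a log2 fold change of -0.13 ± 0.08 (edgeR adjusted p = 0.372).

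*Pdk2*, the widely expressed kinase, and *Pdk3*, the kinase encoded on the X chromosome, moved in opposite directions with MI in KO mice. *Pdk2* had 66.3, 65.5, 68.5 and 70.1 CPM in KO SH and 56.2, 36.6, 49.0 and 57.6 CPM in KO MI, with no overlap. Its log2 fold change of -0.44 ± 0.11 had an edgeR adjusted p of 0.0130 but was under the minimum fold. It was -0.52 and called without KO MI replicate 7. *Pdk3* had 11.2, 11.9, 9.66 and 10.7 CPM in KO SH and 14.2, 21.1, 15.8 and 12.8 CPM in KO MI, again with no overlap. Its log2 fold change was 0.56 ± 0.12 and was called (edgeR adjusted p = 0.00704, exact permutation p = 0.0286 with n = 4 against 4). Without KO MI replicate 2, the library that was highest in *Pdk3* and lowest in *Pdk2*, the *Pdk3* change was 0.40 and fell under the minimum fold (edgeR adjusted p = 0.0139).

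The WT mice showed smaller differences in these kinases. *Pdk2* was lower in all 4 WT MI libraries (58.5, 49.0, 60.2 and 58.7 CPM) than in all 4 WT SH libraries (66.9, 67.1, 74.0 and 62.2 CPM). *Pdk3* was higher in all 4 (14.5, 14.5, 12.9 and 14.6 CPM against 12.4, 10.1, 11.3 and 11.4 CPM). Neither was called (log2 fold changes -0.26 ± 0.11 and 0.32 ± 0.12, edgeR adjusted p = 0.223 and 0.166).

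The ketone enzyme gene *Oxct1* (GRCm39, chromosome 15, 4055638 to 4184828, plus strand) differed by genotype post-sham. WT SH libraries had 312, 279, 281 and 261 CPM and KO SH libraries 161, 189, 173 and 175 CPM, so every KO SH library was below every WT SH library. *Oxct1* was 0.617 times the WT SH level (log2 fold change -0.70 ± 0.20, edgeR adjusted p = 0.0403, exact permutation p = 0.0286 with n = 4 against 4). The call was lost without WT SH replicate 1 (-0.65, edgeR adjusted p = 0.114) and without KO SH replicate 1 (-0.66, edgeR adjusted p = 0.107), the libraries at the ends of the 2 groups.

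After MI, *Oxct1* had 283, 240.4, 231 and 259.8 CPM in WT MI and 325, 406, 355 and 141 CPM in KO MI. Replicates 1, 2 and 3 of KO MI were above every WT MI library, and replicate 7 was below every library of the other groups. With all libraries the difference missed the call (0.27 ± 0.20, edgeR adjusted p = 0.650). Without KO MI replicate 7, KO MI was higher by 0.51 ± 0.08 on the log2 scale and called (edgeR adjusted p = 0.00202).

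In KO mice *Oxct1* rose with MI, by 0.81 ± 0.20 on the log2 scale (1.76 times the KO SH level, edgeR adjusted p = 0.0146), and the call held with each library left out (from 0.647 to 1.05). The groups overlapped, since KO MI replicate 7 was below every KO SH library (exact permutation p = 0.143, n = 4 against 4). In WT mice the change was -0.16 ± 0.20 (edgeR adjusted p = 0.748). Within KO MI the summed level of 6 erythroid markers, among them the globins, was highest in replicate 2 and lowest in replicate 7. *Oxct1* had the same highest and lowest library, but the order of replicates 1 and 3 differed. The sum was 949, 1133 and 743 CPM in replicates 1, 2 and 3 and 353 CPM in replicate 7. It was 415 to 495 CPM in KO SH and 447 to 630.4 CPM in WT MI. All 6 markers were called higher in KO MI against KO SH, beside 7.42% of all tested genes, and none was at 0 in any library. Against WT MI the markers disagreed, with 5 of 6 above 0 and 2 called higher, beside 1.73% of all tested genes. *Hbb-bt* went the other way (-1.19, edgeR adjusted p = 0.136), at 3.64 to 16.7 CPM in KO MI and 20.8 to 29.1 CPM in WT MI. In WT SH the sum was 523 to 727 CPM, above the KO SH range, as was the sum of the cardiomyocyte markers given above. The part of red cells or of cardiomyocytes in the *Oxct1* level was not tested.

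*Bdh1*, which interconverts the ketone bodies, was near the limit of detection. Its counts were 5, 5, 8 and 1 in WT SH, 8, 4, 2 and 3 in KO SH, 13, 9, 14 and 13 in WT MI, and 13, 21, 21 and 2 in KO MI. A floor of 3 counts corresponds to between 0.0577 and 0.0858 CPM in these libraries, and 4 libraries were at it or under it. The call higher in KO MI against KO SH (log2 fold change 1.49 ± 0.56, edgeR adjusted p = 0.0948, exact permutation p = 0.143 with n = 4 against 4) was kept in 4 of the 15 fits with a library left out that could test the gene, and is not firm.

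*Ucp3*, the uncoupling protein of muscle mitochondria, was the other member called lower in KO MI. Its CPM was 27.0, 24.5, 32.6 and 31.1 in WT MI and 13.2, 7.70, 8.33 and 26.4 in KO MI. Replicates 1, 2 and 3 were below every library of the other groups, and replicate 7 was within the WT MI range. The log2 fold change was -1.06 ± 0.27 (edgeR adjusted p = 0.0537, exact permutation p = 0.0571 with n = 4 against 4). Without replicate 7 it was -1.57 (edgeR adjusted p = 0.000106). The call was lost without WT MI replicates 1, 3 or 4 or KO MI replicates 2 or 3, where the log2 fold change nearest to 0 was -0.865 and the highest edgeR adjusted p was 0.145.

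Post-sham, *Ucp3* was 25.9, 29.0, 24.5 and 24.4 CPM in WT SH and 38.1, 26.4, 33.5 and 23.6 CPM in KO SH (log2 fold change 0.23 ± 0.27, edgeR adjusted p = 0.656). Against KO SH, KO MI was lower by a log2 fold change of -1.14 ± 0.27 (edgeR adjusted p = 0.0127, exact permutation p = 0.0857 with n = 4 against 4), and this call held in all 16 fits with a library left out. WT MI and WT SH overlapped (0.15 ± 0.27, edgeR adjusted p = 0.833). Skeletal muscle also expresses *Ucp3* and *Pdk4*, and markers of that tissue (9 genes, such as *Myh8*) were raised in 2 KO MI libraries. Their summed CPM was 69.4 in replicate 2 and 114 in replicate 7, against 2.56 and 7.11 in replicates 1 and 3 and 1.5 to 12.7 in the other groups. *Ucp3* was lowest of all in replicate 2 and highest of KO MI in replicate 7. From 0 to 2 of the 9 markers were at 0 in a KO MI library. With replicates 2 and 7 both left out, a choice made after seeing the data, 2 libraries of KO MI remained. *Pdk4* (-1.64), *Ucp3* (-1.43) and *Angptl4* (-1.81) were then called lower than in WT MI, beside 1.5% of all genes tested in that fit. The part of skeletal muscle in these levels was not tested.

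*Ucp2*, the uncoupling protein found in most tissues, had an estimated log2 fold change of the same size, lower in KO, in both settings. Post-sham the libraries had 59.7, 63.9, 63.1 and 56.3 CPM in WT SH and 48.7, 46.2, 52.3 and 48.3 CPM in KO SH, with no overlap. Post-MI they had 46.8, 54.3, 63.7 and 66.3 CPM in WT MI and 42.2, 48.0, 45.1 and 50.9 CPM in KO MI, where WT MI replicate 1 fell within the KO MI range. The log2 fold change was -0.31 ± 0.09 in each (edgeR adjusted p = 0.0412 post-sham and 0.0914 post-MI), under the minimum fold for a call. The exact permutation p was 0.0286 post-sham and 0.0857 post-MI (n = 4 against 4). With a library left out, the post-sham change ran from -0.349 to -0.286 (edgeR adjusted p at most 0.109). The post-MI change ran from -0.401 to -0.239 (edgeR adjusted p at most 0.305). *Ucp2* and *Ucp3* are neighbours on chromosome 7 (GRCm39, 100122136 to 100151227). Of 141 other genes tested within 5 Mb of *Ucp2*, 15 (10.6%) were called in KO MI against WT MI and 13 (9.22%) in KO SH against WT SH, shares above those of all tested genes. Of these, 9 and 7 were lower in KO. Within the same distance of *Pdk4* the counts were 0 and 3 of 44, and the second (6.82%) was also above the 5.01% of all tested genes. The part of the region in the levels of *Ucp2* and *Ucp3* was not tested.

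*Angptl4* (GRCm39, chromosome 17, 33992724 to 34000804, minus strand), whose product blocks lipoprotein lipase at the vessel wall, rose with MI in WT mice. It had 11.5, 10.9, 7.69 and 7.33 CPM in WT SH and 18.6, 21.7, 23.9 and 21.7 CPM in WT MI, with no overlap. The log2 fold change was 1.20 ± 0.33, or 2.29 times the sham level (edgeR adjusted p = 0.0588, exact permutation p = 0.0286 with n = 4 against 4). The call was lost without any of 6 libraries (WT SH replicates 2, 3 and 4 and WT MI replicates 2, 3 and 4), where the edgeR adjusted p was at most 0.147 and the log2 fold change at least 1.1.

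In KO mice *Angptl4* had 17.6, 11.2, 19.3 and 9.13 CPM post-sham and 7.08, 9.02, 5.24 and 22.1 CPM post-MI. Replicates 1, 2 and 3 of KO MI were below every KO SH and WT MI library, while replicate 7 was above every KO SH library and within the WT MI range. With all libraries KO MI differed from WT MI by -1.0 ± 0.33 on the log2 scale, which was not called (edgeR adjusted p = 0.157). Without replicate 7 it was -1.59 ± 0.24 and called (edgeR adjusted p = 0.00105). KO MI against KO SH gave -0.42 ± 0.33 (edgeR adjusted p = 0.459) with all libraries and -1.01, called, without replicate 7 (edgeR adjusted p = 0.00602). KO SH against WT SH gave 0.61 ± 0.33 (edgeR adjusted p = 0.285). When KO MI replicate 7 left the fit, this difference was called (edgeR adjusted p = 0.0736) at an unchanged log2 fold change of 0.61. That library is in neither group, but all groups share the dispersion estimate of the fit.

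The difference between the KO effect post-MI and the KO effect post-sham was tested as an interaction. By edgeR 0 of the 9 genes were called, beside 5 of all tested genes (0.0248%). An unadjusted p under 0.05 was found for 4 members. The share of all tested genes under that p was not computed, here or for the lists below. Counts by unadjusted p therefore have no background to be read against. The log2 difference was -0.89 ± 0.31 for *Pdk4*, 0.97 ± 0.28 for *Oxct1*, -1.30 ± 0.38 for *Ucp3* and -1.61 ± 0.47 for *Angptl4* (edgeR adjusted p = 0.232, 0.190, 0.192 and 0.190). DESeq2 called *Oxct1* and *Angptl4* (DESeq2 adjusted p = 0.0903 and 0.0968). Without KO MI replicate 7, edgeR called all 4 (-1.14, 1.21, -1.80 and -2.21, edgeR adjusted p = 0.0311, 6.22e-05, 0.00131 and 0.00240), beside 840 of all genes tested in that fit (4.2%). The interaction of *Ucp2* was close to 0 (SE 0.13).

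**Figure D3:**
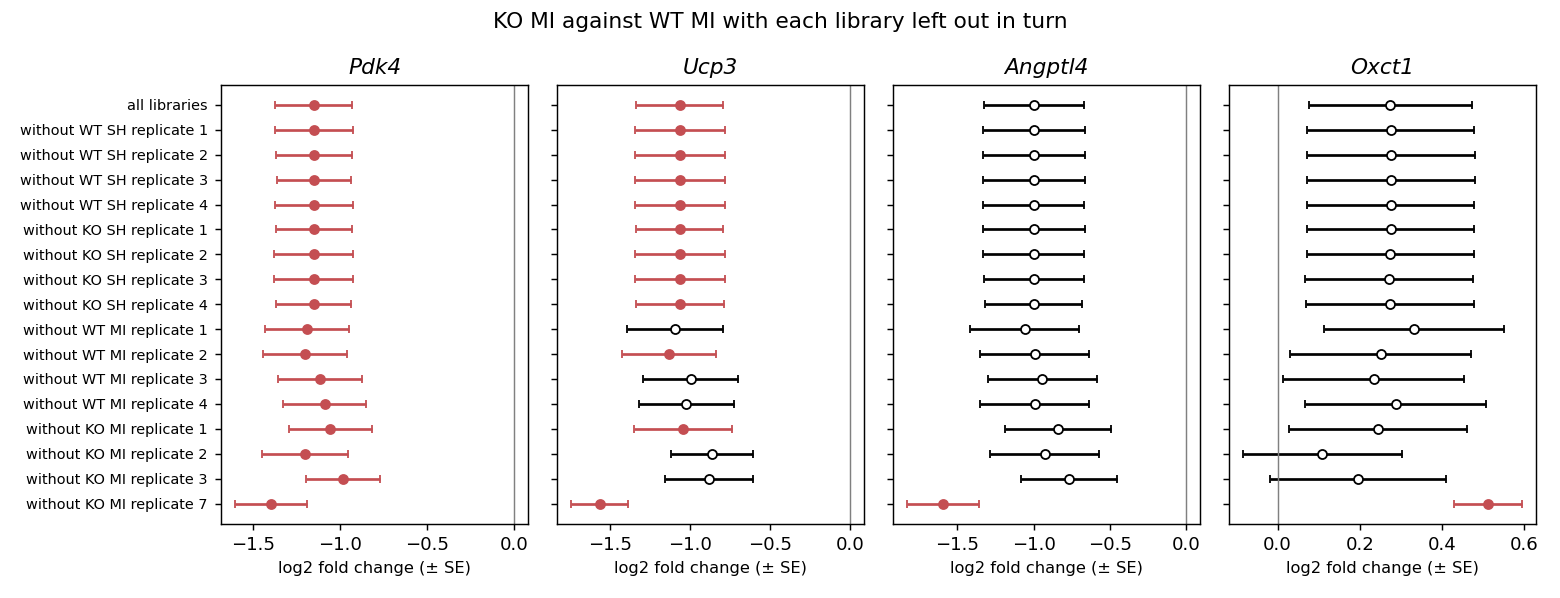
Log2 fold change (x axis, ± SE, own scale in each panel) of *Pdk4*, *Ucp3*, *Angptl4* and *Oxct1* in KO MI against WT MI with all libraries and with each library left out in turn (y axis). Filled red points were called. *Pdk4* was called in each fit, while *Angptl4* and *Oxct1* were called only without KO MI replicate 7.

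Some pairs of members had the same or the reverse order of libraries within a KO group. *Angptl4* and *Pdk4* were both lowest in replicate 3, then 1, then 2, and highest in 7. In KO SH, *Pdk4* and *Ucp3* were both lowest in replicate 4, then 2, then 3, and highest in 1. In KO MI, *Oxct1* and *Ucp3* ran in reverse order to each other, with *Oxct1* highest and *Ucp3* lowest in replicate 2 and the other way in replicate 7. Other orders differed. In WT MI, *Pdk4* was lowest in replicate 2 and *Angptl4* in replicate 1, and in KO SH *Angptl4* was highest in replicate 3.

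**Figure D4:**
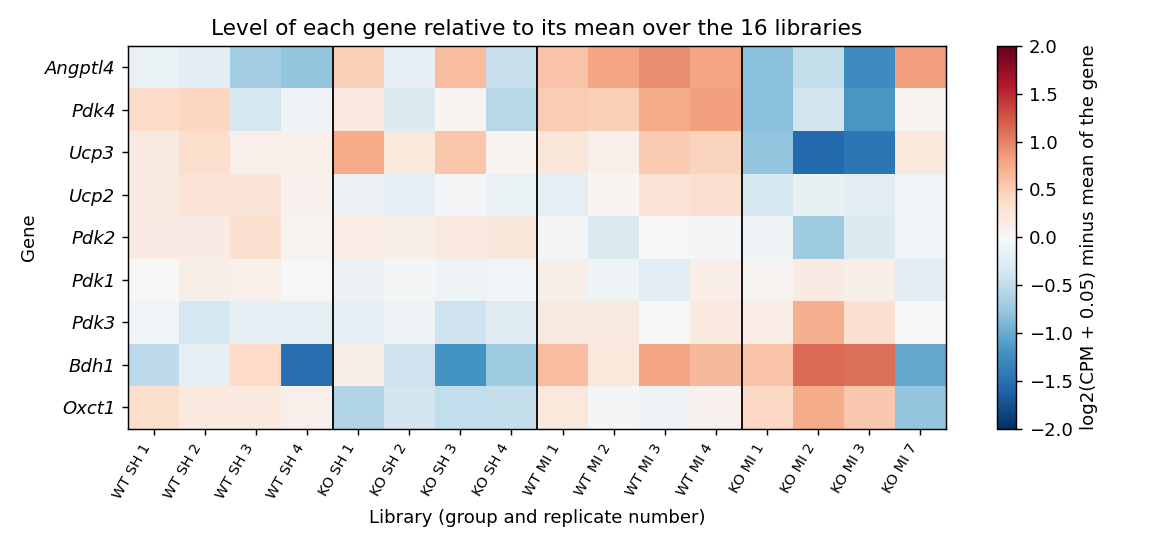
Log2(CPM + 0.05) of the 9 genes (y axis) in the 16 libraries (x axis, by group and replicate) minus the mean of the gene over all libraries (colour; red higher, blue lower). *Angptl4*, *Pdk4* and *Ucp3* are blue and *Oxct1* is red in KO MI replicates 1, 2 and 3, and *Angptl4* and *Oxct1* take the opposite colours in replicate 7.

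KO MI replicate 7 also differed from the other KO MI libraries in genes outside the list, named after their values were seen. *Acot1*, an acyl-CoA thioesterase and PPAR target, had 26.7 CPM there and 9.96 to 12.5 CPM in the others. *Ucp1*, the uncoupling protein of brown fat, had 114 counts there and at most 8 in any other library. The summed CPM of 6 adipocyte markers was also highest there, at 8.86 with 1 marker at 0, against 4.52 to 7.76 with 2 to 5 markers at 0 in the other libraries. Most of the sum was *Cidea*, at 4.52 to 7.74 CPM. The highest *Adipoq* (0.375), *Plin1* (0.669) and *Cidec* (0.214) CPM lay in KO MI. The part of fat tissue in these values was not tested. That replicate thus had the highest *Acot1* and *Ucp1* of all 16 libraries.

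The genes with the closest pattern were taken among protein-coding genes with a mean of at least 10 CPM, by Pearson r of log2 CPM over the 16 libraries (6980 genes compared). For *Pdk4* they were *Angptl4* (r = 0.82), *Ptp4a3* and *Usp40* (r = 0.818 each), and for *Angptl4* they were *Acot1* (0.915), *Cpt1a* (0.891) and *Pdk4*. *Ucp3* was closest to *Prox1* (0.949), *Klf11* (0.949) and *Mpped2* (0.946). *Oxct1* was closest to *Pls3* (0.967) and to the glycolytic enzyme genes *Aldoa* (0.965) and *Pgk1* (0.963), and *Pdk3* to *Gas2l3* (0.976), *Tuba1c* (0.962) and *Acsl4* (0.962). *Bdh1* was closest to *Ero1a* (0.875), *Uba6* (0.833) and *Stx7* (0.821), but on counts of at most 21. The values include the differences between groups.

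Genes of the same pathways were counted from lists. Of 21 other PPAR targets that import, store or oxidise fatty acids, 20 had a log2 fold change below 0 in KO MI against WT MI, with a median of -0.266 where that of all genes was 0.00767. By edgeR 0 were called, and DESeq2 also called 0. By edgeR 9 had an adjusted p under 0.1 below the minimum fold, all lower, beside 3.07% of all tested genes at any fold. An unadjusted p under 0.05 was found for 14. The lowest adjusted p values were those of *Decr1*, a dienoyl-CoA reductase of fatty acid oxidation (-0.34 ± 0.06, edgeR adjusted p = 0.00569), and *Plin5*, a lipid droplet protein (-0.48 ± 0.10, edgeR adjusted p = 0.0219). Without KO MI replicate 7, edgeR called 3 lower, *Acot1* (-0.81), *Ech1* (-0.58) and *Plin5* (-0.55), beside 2.88% of all genes tested. In KO SH against WT SH 9 of the 21 were below 0 and the median was 0.00729. There 0 were called by edgeR or DESeq2, 5 had an unadjusted p under 0.05, and *Fabp3*, the fatty acid binding protein of heart (-0.43), and *Plin2*, a lipid droplet protein (0.42), had the lowest adjusted p (edgeR, 0.00853 and 0.0225). In WT MI against WT SH edgeR called 0 and DESeq2 1, 4 had an unadjusted p under 0.05, and *Acot1* (0.66) and *Slc25a20*, the carnitine carrier (0.19), had the lowest adjusted p (edgeR, 0.106 and 0.140). *Acot1* was called there without KO MI replicate 7, a library of neither group. In KO MI against KO SH 0 were called by edgeR or DESeq2. An edgeR adjusted p under 0.1 was found for 10 of the 21, all lower, beside 17.5% of all tested genes. The lowest were those of *Mlycd*, malonyl-CoA decarboxylase (-0.35, edgeR adjusted p = 0.00283), and *Decr1* (-0.26, edgeR adjusted p = 0.0129). Without replicate 7, 3 were called lower, beside 10.9% of all genes tested.

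Of 10 receptor and coactivator genes of the PPAR, RXR, ERR and PGC1 families, 2 were called lower in KO MI against WT MI, beside 1.73% of all tested genes. *Ppargc1a*, the coactivator PGC-1α, had 141, 92.8, 165 and 110.3 CPM in WT MI and 83.1, 68.4, 69.1 and 109 CPM in KO MI (log2 fold change -0.63 ± 0.16, edgeR adjusted p = 0.0613). *Rxrg*, the RXR form of muscle, had a log2 fold change of -0.90 ± 0.26 (edgeR adjusted p = 0.0991), and this call was lost without KO MI replicate 7. In KO SH against WT SH *Ppara*, the main PPAR of heart muscle, and *Rxrg* were called lower, beside 5.01% of all tested genes. *Ppara* had 16.6, 15.1, 16.4 and 15.6 CPM in WT SH and 9.63, 11.0, 11.3 and 10.5 CPM in KO SH (-0.59 ± 0.10, edgeR adjusted p = 0.00216). The *Rxrg* change was -0.82 ± 0.26 (edgeR adjusted p = 0.0591). *Pdk4*, *Ucp3* and *Angptl4* were not called in that comparison. Neither MI comparison gave a call in this list by edgeR or DESeq2, with 3 unadjusted p values under 0.05 in WT mice (*Ppara* lowest, -0.36, edgeR adjusted p = 0.0568, then *Rxrb*, -0.21, 0.250) and 1 in KO mice (*Esrra*, -0.14, edgeR adjusted p = 0.126, with *Rxrg* next, -0.52, 0.224).

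Among the other ketone body enzymes and carriers, *Slc16a7*, which encodes the monocarboxylate carrier MCT2, was called higher in KO MI against WT MI. *Slc16a7* had 5.40, 6.07, 5.65 and 6.34 CPM in WT MI and 16.1, 15.0, 14.3 and 17.2 CPM in KO MI (1.42 ± 0.21, edgeR adjusted p = 0.00125). It was lower in WT MI than in WT SH (-1.31 ± 0.21, edgeR adjusted p = 0.00275). Post-sham, the *Slc16a7* levels of the genotypes overlapped, at 7.09 to 22.07 CPM in WT SH and 15.17 to 16.96 CPM in KO SH. The gene lies 8.17 Mb from *Lrrc10* on chromosome 10, and the part of this position was not tested. *Slc16a6*, a carrier by which liver exports ketone bodies, was called higher in KO MI against KO SH (0.56 ± 0.17, edgeR adjusted p = 0.0416).

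On the pyruvate side, the list of 10 genes held the subunits of pyruvate dehydrogenase, its phosphatases and the mitochondrial pyruvate carrier. In KO MI against WT MI 9 of 10 were below 0 (median -0.147), 0 were called by edgeR or DESeq2, and 3 had an unadjusted p under 0.05. *Pdpr*, a regulator of the phosphatase (-0.16), and *Mpc2*, a subunit of the pyruvate carrier (-0.26), had the lowest adjusted p (edgeR, 0.269 and 0.308). In KO SH against WT SH 9 of 10 were again below 0 (median -0.269), and *Mpc2* was called lower (-0.52 ± 0.11, edgeR adjusted p = 0.00737). Neither MI comparison gave a call by edgeR or DESeq2 in this list, with 3 unadjusted p values under 0.05 in WT mice and 1 in KO mice. *Pdpr* had the lowest adjusted p in both (-0.18 in each, edgeR adjusted p = 0.124 and 0.0665), followed by *Mpc2* in WT mice (-0.27) and the phosphatase *Pdp1* in KO mice (-0.15).

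Of 14 hypoxia-inducible genes 3 were called higher in KO MI against KO SH, the glucose carrier *Slc2a1* (1.02 ± 0.19), *Ankrd37* (0.71 ± 0.23) and *Pgk1* (0.55 ± 0.14), with edgeR adjusted p = 0.00291, 0.0505 and 0.0209. The count was 6 without KO MI replicate 7, with *Ldha*, *P4ha1* and *Car9* added, while the share of all tested genes called rose from 7.42% to 10.9%. The HIF-1 target *Pdk1* was not called there (0.10 ± 0.08). *Ankrd37* was called lower in KO SH against WT SH (-0.73 ± 0.23, edgeR adjusted p = 0.0583). In KO MI against WT MI 0 of 14 were called by edgeR or DESeq2, with 3 unadjusted p values under 0.05 and *Adm*, the peptide adrenomedullin, at 0.50 ± 0.11, just under the minimum fold (edgeR adjusted p = 0.0269). *Slc2a1* followed at 0.42 (edgeR adjusted p = 0.340) and was called without replicate 7 (0.55). In WT MI against WT SH 0 were called by edgeR or DESeq2, 3 had an unadjusted p under 0.05, and the angiogenic factor *Vegfa* had the lowest adjusted p (-0.28, edgeR adjusted p = 0.0128), followed by the HIF hydroxylase *Egln1* (-0.17).

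*Pdk4* is also a target of FOXO factors and glucocorticoids. Of 12 genes that respond to these, *Irs2*, an insulin receptor substrate, was lower in KO SH against WT SH (-1.82 ± 0.20, edgeR adjusted p = 3.16e-05) and in WT MI against WT SH (-1.53 ± 0.20, edgeR adjusted p = 0.000558). The clock gene *Per1* was also lower in both (-0.68 ± 0.13 and -0.66 ± 0.13, edgeR adjusted p = 0.00508 and 0.0128). *Txnip*, a thioredoxin-binding protein that limits glucose uptake, was higher in KO SH against WT SH (0.75 ± 0.24, edgeR adjusted p = 0.0621) and lower in KO MI against KO SH (-0.78 ± 0.24, edgeR adjusted p = 0.0411). In KO MI against WT MI 0 of 12 were called by edgeR or DESeq2, and 6 had an unadjusted p under 0.05 by edgeR, led by *Irs2* (-0.64) and the glucocorticoid-induced *Klf9* (-0.49), with edgeR adjusted p = 0.135 and 0.165. *Txnip* (-0.99) and *Irs2* (-0.85) were called lower without KO MI replicate 7. *Fkbp5*, a chaperone of the glucocorticoid receptor, was called higher in KO MI against KO SH (0.75 ± 0.17, edgeR adjusted p = 0.0104), where the count rose from 2 to 4 without replicate 7, and the share of all tested genes from 7.42% to 10.9%.

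**Figure D5:**
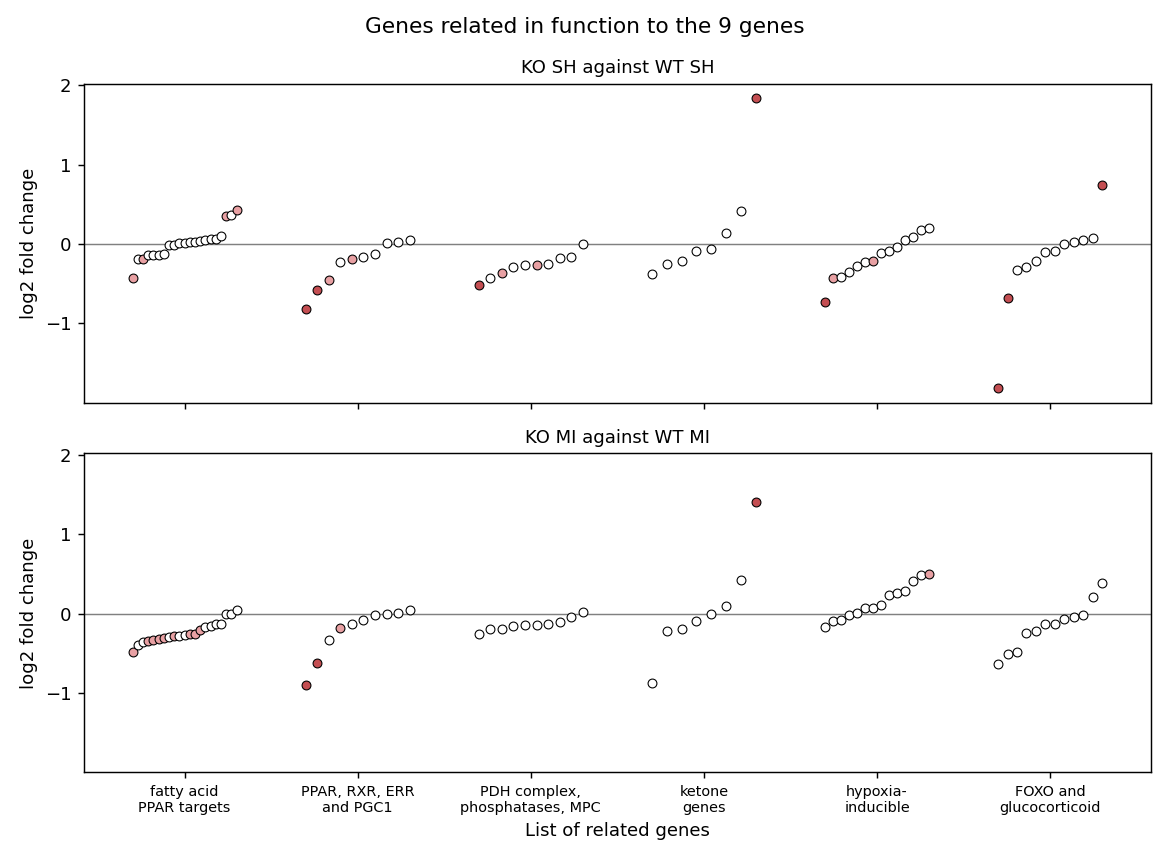
Log2 fold change (y axis) of each gene of 6 lists of related genes (x axis) in KO SH against WT SH (top) and KO MI against WT MI (bottom). Red points were called, pink points had an adjusted p under 0.1 below the minimum fold, and open points had neither. In the bottom panel 20 of 21 fatty acid targets lie below 0; in the top panel 9 do.

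Among the partners of *Angptl4*, 6 of the 7 genes for lipoprotein lipase and its regulators were tested. *Angptl8* was called higher in KO SH against WT SH (1.68 ± 0.48, edgeR adjusted p = 0.0399), on at most 17 counts in a library, and DESeq2 did not call it. It was called lower in KO MI against KO SH (-1.24 ± 0.44, edgeR adjusted p = 0.0798), but not by DESeq2 or without KO MI replicate 7. In KO MI against WT MI 0 were called by edgeR or DESeq2 and 0 had an unadjusted p under 0.05, and *Lpl*, the lipase itself, had -0.11 ± 0.06 (edgeR adjusted p = 0.519) and *Angptl8* -0.57 (edgeR adjusted p = 0.701). Of 5 tested relatives of the uncoupling proteins, *Slc25a27* was called lower in KO MI against KO SH (-0.56 ± 0.18, edgeR adjusted p = 0.0519), and 0 were called in the other comparisons by edgeR or DESeq2, where 3 had an unadjusted p under 0.05 in KO SH against WT SH and 0 in the rest. *Slc25a4*, the adenine nucleotide carrier of heart, had -0.36 in KO SH against WT SH (edgeR adjusted p = 0.0132), under the minimum fold, and its relative *Slc25a5* -0.28 (edgeR adjusted p = 0.119). In KO MI against WT MI the lowest adjusted p were those of *Slc25a14* (0.40, edgeR adjusted p = 0.541) and *Slc25a5* (0.08), and in WT MI against WT SH of *Slc25a4* (-0.15, edgeR adjusted p = 0.368) and *Slc25a14* (-0.11).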

How the data were processed

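Ventricular RNA of 16 mice was sequenced as strand-specific read pairs of 150 bp (SMARTer Stranded Total RNA). The authors' table, as deposited, holds RSEM expected counts per gene, whole numbers without normalization. The paper's methods give Skewer (version 0.1.123), STAR (version 2.5.3a), RSEM (version 1.3.0) and GRCm39. The submitters' processing notes list cutadapt (version 3.4), HISAT2 (version 2.2.1) and RSEM (version 1.1.17) instead, so the tools behind the table are uncertain. The annotation release is not given in the sources used here, and GENCODE M39 named 47772 of 51912 identifiers. RSEM splits reads that fit several genes. No member overlaps a gene on its own strand, and 6 overlap antisense genes.

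Groups came from the sample titles. Genes whose counts added up to 10 or more within every group were fitted with edgeR (version 4.0.16; R 4.3.3): TMM scaling, a quasi-likelihood model with 1 coefficient per group over all 16 libraries, 2-sided F-tests and Benjamini-Hochberg adjustment over 20159 genes. Each SE is the size of the log2 fold change divided by the root of F. Single genes had an exact permutation test on log2(CPM + 0.05). RPKM used the union of exons. DESeq2 (version 1.42.0), other scalings, filters and covariates, and each library left out were alternatives. The fit was tested on simulated data. Depth was from 33783874 to 57470159 counts (median 45092798).

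The members, lists and tests were chosen with earlier results of these data known. The named genes were the 9 members, *Lrrc10*, *Xist*, the called genes of each list or else the 2 with the lowest adjusted p, and the 3 genes with the closest pattern, and some genes of the lists are not reported here. The labels do not say that animals were of separate litters, so p-values measure the spread between these mice.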

Additional observations from a re-analysis of the deposited data

Results flagged for a closer look

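Of 36 sets of 4 libraries (9 genes in 4 groups), 2 held a library far from the other 3 by Dixon's gap test, about what chance gives at 1 in 20. *Pdk2* in WT MI replicate 2 was 49.0 CPM, where the other WT MI libraries had 58.5 to 60.2 CPM. *Pdk3* in WT MI replicate 3 was 12.9 CPM, where the others had 14.5 to 14.6 CPM. Neither gene was called in WT MI against WT SH with or without these libraries.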

How the results depend on the processing

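The number of the 9 genes called was 2 in KO MI against WT MI, 1 in KO SH against WT SH, 1 in WT MI against WT SH, 4 in KO MI against KO SH and 0 in the interaction, and the settings that moved a count by more than 1.5 times follow. DESeq2 called 2 in the interaction, with 289 of all genes against 5 by edgeR (39 with no filter, 8 with a robust fit or an *Xist* covariate, 3 at an adjusted p under 0.05). Fitting only the groups compared gave 1 (192 of all genes against 348), 2 and 2 in the first 3 comparisons. A robust fit, or an adjusted p under 0.05, gave 1 in KO MI against WT MI and 0 in WT MI against WT SH. No minimum fold gave 2 in KO SH against WT SH. With the replicate number as a block, in which KO MI replicate 7 has a level of its own and so no weight, the counts were 4 in KO MI against WT MI, 2 in KO SH against WT SH, 7 in KO MI against KO SH and 4 in the interaction (689 of all genes). Same-numbered libraries of different groups did not deviate together (mean r = 0.008 over 21 pairs), so the numbers do not pair them, and the block changed no other count by that much. Leaving out each library gave 1 to 4, 0 to 2, 0 to 1, 2 to 7 and 0 to 4 in the order above. The highest count came without KO MI replicate 7 in all but WT MI against WT SH (840 of all genes in the interaction, 169 there without WT SH replicate 4), and the count of 2 in KO MI against KO SH came without KO MI replicate 2. Leaving out KO MI replicates 2 and 7 together, chosen after seeing the data, gave 2 in KO SH against WT SH, 2 in WT MI against WT SH and 4 in the interaction. The causes were not tested beyond the libraries named.

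Directions reversed only for differences that were smaller than their SE and not called. The *Pdk2* log2 fold change in KO SH against WT SH was -0.00277 by DESeq2 and -0.00271 with its size factors, and from -0.0344 to 0.0492 with a library left out. The *Ucp2* interaction was -0.00796 with no filter, -0.00146 with at least 10 counts in every library, -0.0276 with the block, -0.00783 with an *Xist* covariate, -0.107 without KO MI replicates 2 and 7, and from -0.0875 to 0.0743 with a library left out. With a library left out, *Bdh1* ranged from -0.525 to 0.268 in KO SH against WT SH, from -0.0885 to 0.438 in KO MI against WT MI and from -0.135 to 0.659 in the interaction. *Ucp2* ranged from -0.147 to 0.0152 in WT MI against WT SH, and *Pdk1* from -0.0188 to 0.116 in KO MI against WT MI. With at least 10 counts in every library *Bdh1* could not be fitted, nor without KO SH replicate 1. Depth limits *Bdh1*, *Angptl8* and *Ucp1*, with few counts per library, and not the other members.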
